A study of Homo sapiens with 3 samples.

Results

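The genes described here build and load HLA class I molecules, the surface proteins that show peptides from inside the cell to CD8+ T cells and natural killer cells. They were taken by symbol and number 9 of the 33694 features measured: the heavy chains HLA-B, HLA-C, HLA-E and HLA-F, the light chain B2M, the peptide transporter subunits TAP1 and TAP2, the loading factor TAPBP and the transactivator NLRC5. The cells were BxPC-3, a long-established human line grown from a pancreatic ductal adenocarcinoma. EGFP-expressing and mCherry-expressing cells had been mixed in equal number and held in suspension, which lets one cell enter another and form a cell-in-cell structure. Each of 3 groups had 1 droplet library. Double-positive cells carried both fluorescent signals in the sort, single-positive cells carried one of them, and parental cells were the line itself, named as such in the labels. Both sorted groups came from the same suspended mixture, whereas no suspension step or sort is stated for the parental cells. Whether both colours went into the single-positive library, and whether the sorted cells were grown on before capture, is not stated, although the protocol speaks of expanded cells. A double-positive droplet can hold RNA of 2 cells, and more RNA of one cell and a mixture of 2 cells cannot be told apart.

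A class I molecule is a heavy chain paired with beta-2-microglobulin, and it is stable at the surface only when it holds a peptide. Proteasomes cut proteins into peptides, the TAP1 and TAP2 heterodimer pumps them into the endoplasmic reticulum, and tapasin, the product of TAPBP, bridges the transporter and the empty heavy chain during loading. NLRC5 acts in the nucleus on the class I promoters, and interferons raise the transcription of the pathway through interferon-stimulated response elements and through NLRC5 itself.

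Barcodes with at least 6500 unique molecular identifiers (UMIs, 1 per captured RNA molecule) were taken as cells. They numbered 1940 in the double-positive, 1291 in the single-positive and 2409 in the parental library and held between 97.7% and 98.0% of all UMIs. The depth per library was 62517276, 51637677 and 65107147 UMIs in that order. The median cell held 29963.5 UMIs in the double-positive, 38137 in the single-positive and 23290 in the parental library, so cells differed in depth between groups. Single-positive cells had the widest range, with quartiles at 21756.5 and 51107.5 UMIs. Between 1 and 6 cell barcodes were shared by any pair of libraries and 0 by all 3. The 9 epithelial markers summed to 14407, 15225 and 15416 counts per 1000000 UMIs (CPM) in the double-positive, single-positive and parental libraries. For the 11 immune markers the sums were 36.8, 33.0 and 44.7 CPM, mostly from CD68, also a lysosomal protein, at 32.0, 29.1 and 39.1 CPM. CD14, another of these markers, had 4.37, 3.37 and 4.94 CPM, and the leukocyte marker PTPRC was at 0 in all 3. With 1 library in each group no test was possible, and all intervals below cover counting error only, not the spread between cultures.

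Because these genes are known interferon targets, the sequences upstream of them were searched for the interferon-stimulated response element core, spelled GAAANNGAA or GAANNGAAA on either strand. RefSeq promoters (GRCh38.p14, from 250 bases before to 50 bases after a transcription start) were at hand for 7 of the 9 genes, all but HLA-E and NLRC5. All 7 held at least 1 match, against 14.5% of 35116 human promoters of the same length. The matched stretches follow on the strand of the gene, 5′ to 3′, with the core in capitals. In HLA-B and HLA-C the core and the 10 bases before it were identical, while B2M, TAP1, TAP2 and TAPBP each held a pair of overlapping cores.
HLA-B (chr6:31357316-31357344, minus strand): ctcccctgagTTTCACTTCttctcccaac
HLA-C (chr6:31272225-31272253, minus strand): ctcccctgagTTTCACTTCtcccaacctg
HLA-F (chr6:29723269-29723297, plus strand): tccccagagtTTCTCTTTCtctcccaacc
B2M (chr15:44711363-44711397, plus strand): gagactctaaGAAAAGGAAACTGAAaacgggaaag
TAP1 (chr6:32853813-32853847, minus strand): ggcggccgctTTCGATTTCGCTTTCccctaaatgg
TAP2 (chr6:32838779-32838812, minus strand): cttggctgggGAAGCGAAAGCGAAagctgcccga
TAPBP (chr6:33314074-33314108, minus strand): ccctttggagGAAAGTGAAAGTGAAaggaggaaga
The first matched base lay 155 bases before the start in HLA-B and HLA-F, 151 in HLA-C, 144 in B2M, 133 in TAP1, 63 in TAP2 and 20 in TAPBP. A match describes letters in these windows and does not show that a factor is bound in BxPC-3 cells.

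The NF-kB consensus was found in 5 of the 7 genes, against 5.91% of all promoters, and was missing from the windows of HLA-F and TAP2. The box CCAAT was found in 5 of 7, against 34.6% of all promoters, and TGACG in 4 of 7, against 24.6%, each searched on both strands. In HLA-B, HLA-C, B2M and TAPBP fewer than 30 bases lay between the NF-kB match and the response element. The 2 matches of TAP1 lay farther off, beginning 72 bases before and 23 bases after the start. Whole promoters are given for HLA-B, which had the largest ratio between libraries, and for B2M and TAP1, which went different ways between the sorted groups. Capitals mark the interferon-stimulated response element cores and the NF-kB matches.
HLA-B (chr6:31357130-31357429, minus strand): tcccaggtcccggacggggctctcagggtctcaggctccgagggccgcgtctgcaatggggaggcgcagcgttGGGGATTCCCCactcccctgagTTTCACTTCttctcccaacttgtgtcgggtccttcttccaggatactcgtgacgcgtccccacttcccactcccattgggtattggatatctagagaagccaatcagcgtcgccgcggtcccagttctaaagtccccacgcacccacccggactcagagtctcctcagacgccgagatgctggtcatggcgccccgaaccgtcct
B2M (chr15:44711267-44711566, plus strand): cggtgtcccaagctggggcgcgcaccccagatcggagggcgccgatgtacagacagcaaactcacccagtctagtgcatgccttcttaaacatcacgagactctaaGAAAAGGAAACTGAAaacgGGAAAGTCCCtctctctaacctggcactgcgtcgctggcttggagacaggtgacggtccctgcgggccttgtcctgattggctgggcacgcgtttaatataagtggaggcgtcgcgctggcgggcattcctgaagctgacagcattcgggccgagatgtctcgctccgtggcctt
TAP1 (chr6:32853655-32853954, minus strand): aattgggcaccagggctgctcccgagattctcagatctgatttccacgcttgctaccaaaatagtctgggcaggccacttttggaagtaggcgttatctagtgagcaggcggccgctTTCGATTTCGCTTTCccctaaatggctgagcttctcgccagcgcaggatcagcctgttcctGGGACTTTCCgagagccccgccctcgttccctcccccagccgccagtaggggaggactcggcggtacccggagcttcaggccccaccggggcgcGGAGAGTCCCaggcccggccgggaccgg
TAP1 has a further annotated start whose window held none of these motifs.

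Among the classical heavy chains, HLA-B presents peptides on nearly all nucleated cells. Its gene lies on chromosome 6, with the main transcript at 31353872 to 31357187 of GRCh38 on the minus strand. HLA-B had 449 CPM in double-positive, 357 CPM in single-positive and 352 CPM in parental cells, from 27434, 17989 and 22472 UMIs. The double-positive library was thus the highest, and the interval between the other two included 0. The log2 ratio was 0.33 (95% counting interval 0.30 to 0.36) for double-positive against single-positive cells. It was 0.02 (-0.01 to 0.05) for single-positive against parental cells and 0.35 (0.32 to 0.37) for double-positive against parental cells.

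HLA-C, the other classical heavy chain here and a main ligand of inhibitory receptors of natural killer cells, lies on chromosome 6 at 31268749 to 31272130 on the minus strand. HLA-C had 868 CPM in double-positive, 754 CPM in single-positive and 862 CPM in parental cells. Here the single-positive library stood below both others, with a log2 ratio of 0.20 (0.18 to 0.22) for double-positive against single-positive and of -0.19 (-0.21 to -0.17) for single-positive against parental cells. Double-positive and parental cells differed by 0.01 (-0.01 to 0.03). HLA-B and HLA-C thus stood in a different order across the libraries, although they are neighbours on the chromosome. One annotated transcript of HLA-B, HLA-B-258, spans HLA-C, and HLA-C shared 1.98% of its 75-base windows with other genes, mostly HLA-H, while the main transcript of HLA-B shared 0. Reads were counted on the reference alleles, so a mismatch of the line's own alleles could lower the counts of either gene in all 3 libraries.

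HLA-E shows leader peptides of other class I chains to natural killer cells and lies on chromosome 6 at 30489467 to 30494205 on the plus strand. HLA-E had 194 CPM in double-positive, 184 CPM in single-positive and 190 CPM in parental cells. These levels lay close together, with log2 ratios of 0.07 (0.03 to 0.11) for double-positive against single-positive, -0.05 (-0.09 to -0.01) for single-positive against parental and 0.03 (-0.01 to 0.06) for double-positive against parental cells. HLA-F, a non-classical chain that can reach the surface without peptide, lies on chromosome 6 at 29722775 to 29738528 on the plus strand. HLA-F had 23.7 CPM in double-positive, 20.0 CPM in single-positive and 20.6 CPM in parental cells, from 1447, 1011 and 1311 UMIs. It was highest in double-positive cells, by 0.24 (0.12 to 0.36) over single-positive and 0.20 (0.09 to 0.31) over parental cells, and the other two overlapped. An antisense gene overlaps HLA-F, and no source used here says whether counting used strand.

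B2M, the light chain shared by every class I heavy chain, is the one member outside the HLA region apart from NLRC5, on chromosome 15 at 44711487 to 44718877 on the plus strand. B2M had 6676 CPM in double-positive, 5378 CPM in single-positive and 6401 CPM in parental cells, from 408266, 271368 and 408250 UMIs. Single-positive cells stood lowest, as for HLA-C. The log2 ratio was 0.31 (0.30 to 0.32) for double-positive against single-positive, -0.25 (-0.26 to -0.24) for single-positive against parental and 0.06 (0.05 to 0.07) for double-positive against parental cells. Counting error was small beside these differences, while the error between cultures was not measured.

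The genes of peptide transport and loading stood much closer together. TAP1, the first subunit of the transporter, lies on chromosome 6 at 32845209 to 32853978 on the minus strand and had 37.2 CPM in double-positive, 40.2 CPM in single-positive and 37.4 CPM in parental cells. Single-positive cells were the highest for TAP1, the reverse of B2M, although by little: the log2 ratio was -0.11 (-0.20 to -0.03) for double-positive against single-positive and 0.10 (0.02 to 0.19) for single-positive against parental cells. TAP1 overlaps PSMB9 and PSMB8-AS1, which lie on the opposite strand. TAP2, its partner subunit, at 32821833 to 32838780 on chromosome 6, had 13.7, 13.6 and 12.8 CPM in double-positive, single-positive and parental cells, and all 3 counting intervals overlapped. TAP2 is uncertain, since all 75-base windows in its first 500 bases are also in AL669918.1, a gene of the same strand that has a row of its own in the files.

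TAPBP, which encodes tapasin, lies on chromosome 6 at 33299694 to 33314387 on the minus strand. TAPBP had 134 CPM in double-positive, 135 CPM in single-positive and 127 CPM in parental cells, so that both sorted libraries stood slightly above the parental one, by 0.07 (0.03 to 0.12) and 0.09 (0.04 to 0.13) on the log2 scale. NLRC5, on chromosome 16 at 56989485 to 57083531 on the plus strand, was the one member under 10 CPM. NLRC5 had 4.04 CPM in double-positive, 4.06 CPM in single-positive and 4.77 CPM in parental cells, from 247, 205 and 304 UMIs. At this depth no difference between the libraries was detectable, the log2 ratio of double-positive against parental cells being -0.24 (-0.49 to 0.01).

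**Figure D1:**
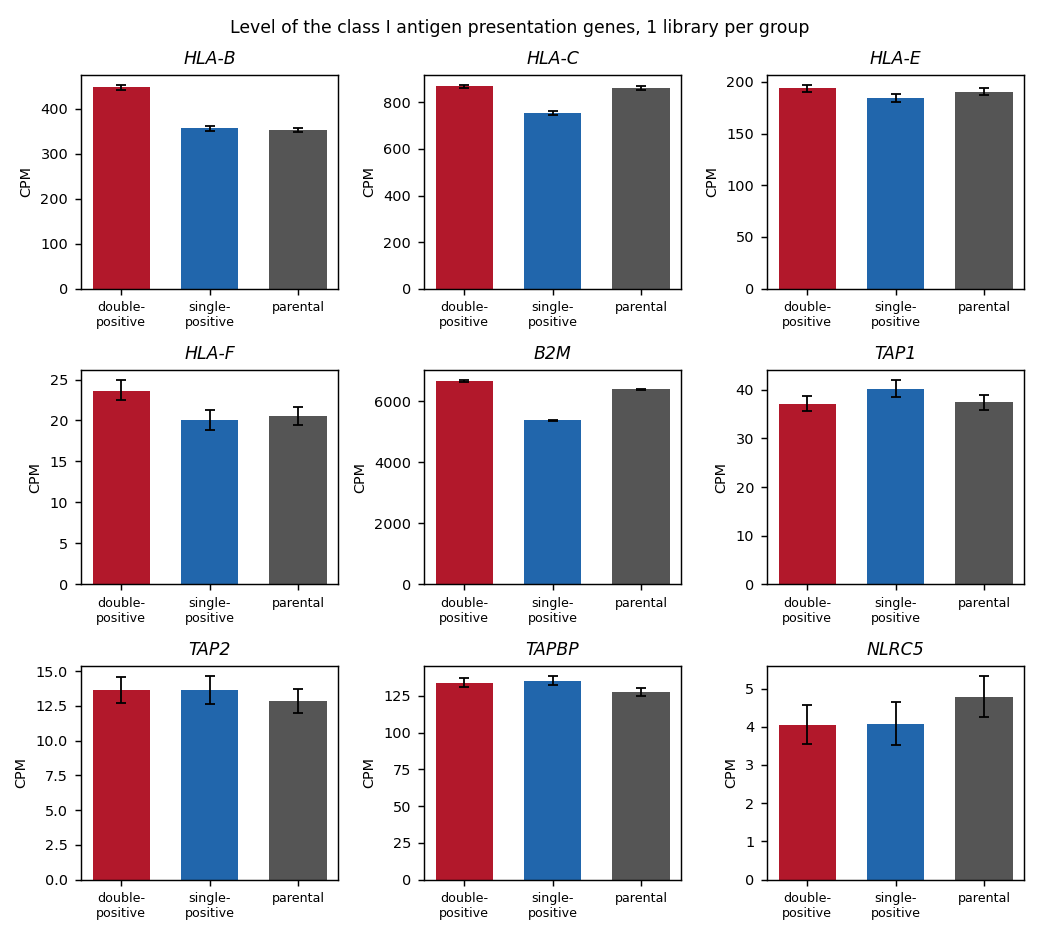
Level of each of the 9 genes in counts per 1000000 UMIs (CPM, y axis, starting at 0) in the double-positive, single-positive and parental library. Bars are the sum over all cells of the 1 library of a group and black lines the 95% counting interval. HLA-B is highest in the double-positive library at 449 CPM, B2M is lowest in the single-positive library at 5378 CPM, and TAP1 is highest there at 40.2 CPM.

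Seen as a group, 2 of the 9 genes, HLA-B and B2M, were at least 1.2-fold higher in double-positive than in single-positive cells and 0 were at least 1.2-fold lower. Of the 7687 genes that averaged 10 CPM or more, 2.54% were higher and 4.92% lower by that measure. Between single-positive and parental cells 0 members passed 1.2-fold in either direction, against 7.75% of all genes higher and 2.58% lower. Between double-positive and parental cells HLA-B alone was higher and 0 were lower, against 3.29% and 2.86% of all genes. The median log2 ratio over the 9 members was 0.07, -0.04 and 0.06 in these 3 comparisons, and the median over all genes was -0.02, 0.05 and 0.03. The comparisons share libraries, so they are not independent of each other. All 9 genes together made up 8399 CPM in double-positive, 6886 CPM in single-positive and 8008 CPM in parental cells, a sum that is mostly B2M. The 4 heavy chains alone summed to 1534, 1315 and 1425 CPM in the same order.

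**Figure D2:**
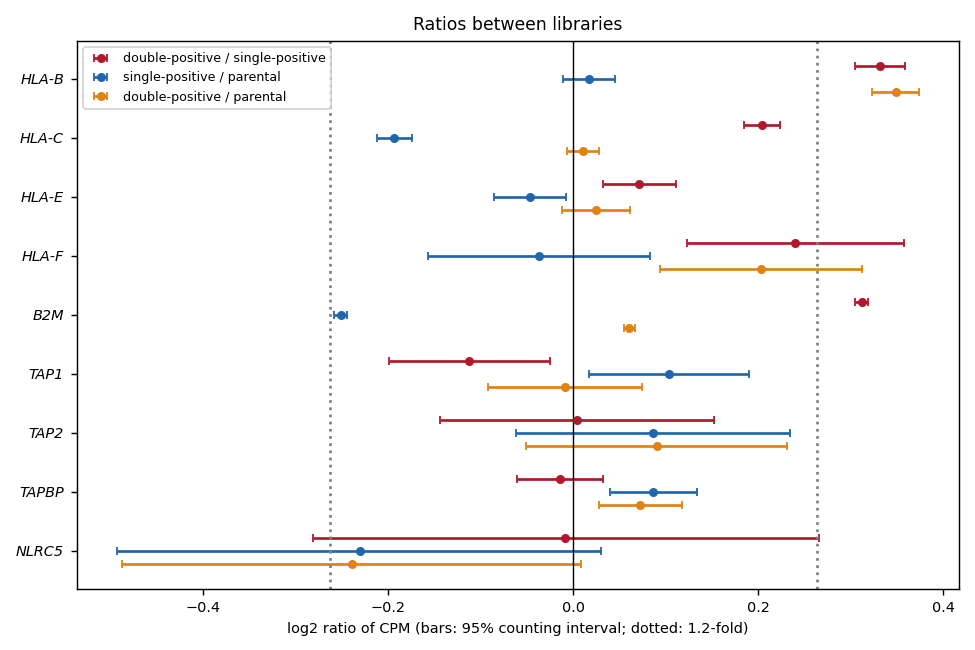
Log2 ratio of CPM (x axis) for each of the 9 genes (y axis) in the 3 comparisons, with 95% counting intervals as bars and dotted lines at 1.2-fold. HLA-B and B2M lie past the line for double-positive against single-positive cells (0.33 and 0.31), and HLA-B alone for double-positive against parental cells (0.35).

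Part of these differences was smaller among cells of like depth. Among cells between 22974 and 32998 UMIs in every library (701 double-positive, 142 single-positive and 628 parental cells), the log2 ratio of double-positive against single-positive cells was 0.13 for HLA-B and 0.23 for B2M, and no member remained past 1.2-fold higher. Among all genes 12.7% were higher and 10.7% lower by that measure among these cells. In that range HLA-B was 0.30 higher in single-positive than in parental cells and 0.43 higher in double-positive than in parental cells. The excess of HLA-B in double-positive over parental cells stayed between 0.31 and 0.43 under all 10 alternative ways of counting or choosing cells. Near-empty barcodes, which hold free RNA, gave HLA-B at 389, 281 and 293 CPM and B2M at 7019, 5354 and 6337 CPM in the double-positive, single-positive and parental libraries, similar to the cells. Such barcodes held only 2.32, 2.54 and 2.09 UMIs on average, and no other cell type was present in which a background level could be read.

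Cells were next compared with each other, after each was thinned to 6500 UMIs so that depth no longer differed. HLA-B was found in 84.4% (binomial interval 82.7 to 86.0) of double-positive, 77.1% (74.7 to 79.3) of single-positive and 76.7% (75 to 78.4) of parental cells. Without thinning the shares were 97.9%, 96.2% and 94.4%. A median cell held 2 HLA-B UMIs in every library, but 10% of cells held at least 7, 5 and 6, and the highest held 24, 25 and 40. B2M, in contrast, was found in all thinned double-positive and parental cells and in 99.9% of single-positive cells. The median cell held 42, 35 and 40 B2M UMIs in double-positive, single-positive and parental cells, and the 10th and 90th percentiles were 25 and 67 in double-positive, 19 and 54 in single-positive and 24 and 63 in parental cells. HLA-C had a median of 5, 4 and 5 UMIs and was found in between 97.9% and 98.0% of cells.

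Overdispersion, the variance beyond counting noise divided by the squared mean, put numbers on this spread. A value of 0 is counting noise alone. HLA-B stood at 0.63 in double-positive, 0.83 in single-positive and 0.83 in parental cells, above 84.7%, 90% and 89.8% of all genes. HLA-C, its neighbour, stood at 0.22 in all 3 libraries and B2M at 0.13, 0.14 and 0.13, near or below the medians of all genes, which were 0.19, 0.16 and 0.18. HLA-E lay between 0.18 and 0.20 and TAPBP between 0.14 and 0.20. TAP1 gave 0.43, 0.60 and 0.45, but it averaged only 0.25 to 0.26 UMIs per thinned cell, and in double-positive cells its value was -0.03 when cells were thinned to 3000 UMIs. HLA-F, TAP2 and NLRC5 had under 0.2 UMIs per thinned cell, a limit set after their values were seen, and their spread is not given. The shares and medians of all genes were taken over genes averaging 10 CPM or more, which include genes under that limit. No member was set against genes of like level alone, so the rank of HLA-B among all genes is a rough one.

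**Figure D3:**
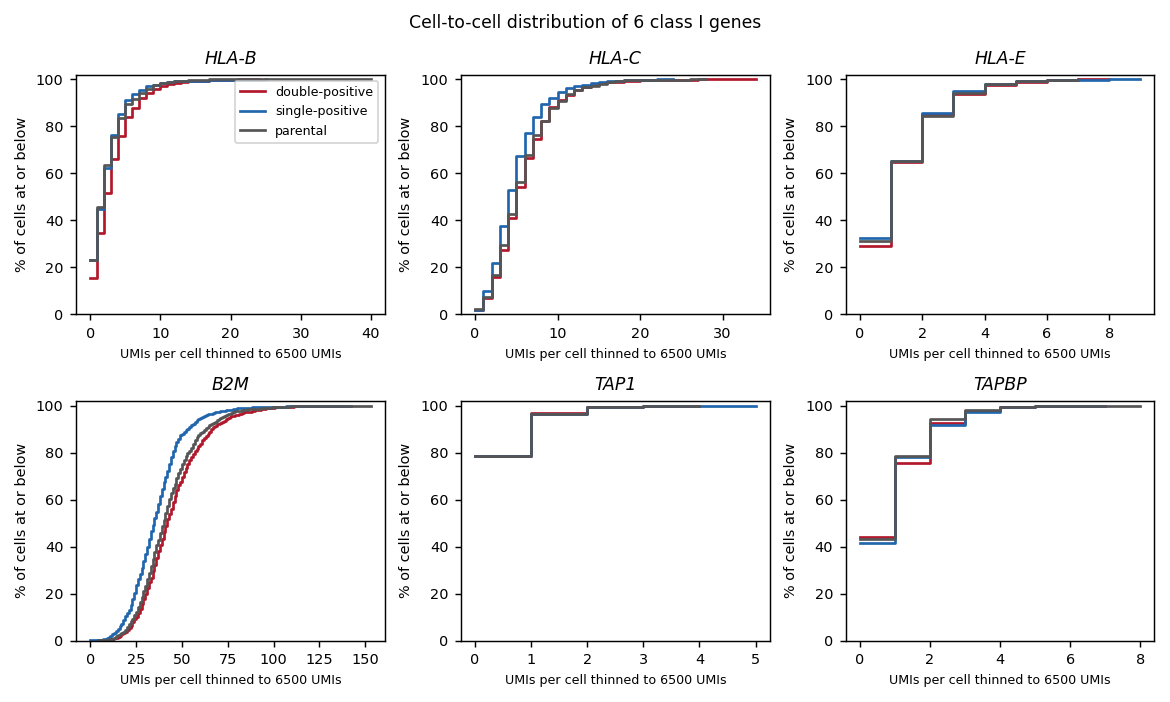
Share of cells (y axis, percent) with at most a given number of UMIs (x axis) of each of 6 genes after thinning every cell to 6500 UMIs, by library. For HLA-B the double-positive curve starts lower, since 84.4% of those cells held at least 1 UMI against 77.1% of single-positive and 76.7% of parental cells. The single-positive curve of B2M lies to the left, with a median of 35 UMIs against 42 in double-positive and 40 in parental cells.

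Some members varied together across cells of a library and others did not. The Spearman correlation over the thinned cells was 0.44, 0.46 and 0.40 between HLA-B and B2M in double-positive (1940 cells), single-positive (1291 cells) and parental cells (2409 cells). It was 0.43, 0.40 and 0.40 between HLA-C and B2M and 0.42, 0.33 and 0.39 between HLA-B and HLA-C. Over all 36 pairs of members the median was 0.05, 0.07 and 0.04, and no pair with TAP2 or NLRC5 passed 0.09. These cells share a library and its depth, and genes with few UMIs per cell cannot reach a high correlation, so the low values of TAP2 and NLRC5 are not evidence of independence.

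The link to interferon was measured with the summed UMIs of 46 interferon-stimulated genes, a list that holds no member. IFI27, IFITM3, IFI6, ISG15 and IFITM1, 5 strongly interferon-inducible genes, supplied 81.2% of that sum. Its median was 110 UMIs in double-positive, 93 in single-positive and 110 in parental cells. B2M gave a Spearman correlation of 0.46, 0.47 and 0.46 in double-positive, single-positive and parental cells. This measure depends on the UMIs a gene has per cell, of which B2M has the most, so the order of the genes by it is not an order of their response. HLA-B gave 0.33, 0.38 and 0.37, and HLA-C gave 0.30, 0.34 and 0.35. HLA-E lay between 0.15 and 0.17, HLA-F between 0.10 and 0.15 and TAP1 between 0.12 and 0.17, whereas TAP2, TAPBP and NLRC5 reached at most 0.09. For all genes the median was -0.01 in each library and the 99th percentile was 0.14. Without the 5 highest genes the sum still gave 0.29, 0.34 and 0.32 for B2M and 0.22, 0.29 and 0.28 for HLA-B, an alternative chosen after seeing the data.

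Other gene sets followed the class I genes less. The UMIs of all 9 members summed gave a Spearman correlation of 0.49, 0.52 and 0.51 with the interferon-stimulated sum in double-positive, single-positive and parental cells. With 12 interferon-gamma-biased genes, such as guanylate-binding proteins, it was 0.21, 0.20 and 0.24, and with the 5 genes of the immunoproteasome and its activator 0.14, 0.08 and 0.22. The constitutive catalytic subunits of the proteasome gave 0.01, 0.00 and 0.03. With S phase genes it was -0.15, -0.21 and -0.18 and with G2 and mitosis genes -0.20, -0.13 and -0.16, so that cells with more cell-cycle RNA tended to hold a smaller share of class I RNA. These sums differ in how many UMIs they hold, and their correlations are not on an equal footing.

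**Figure D4:**
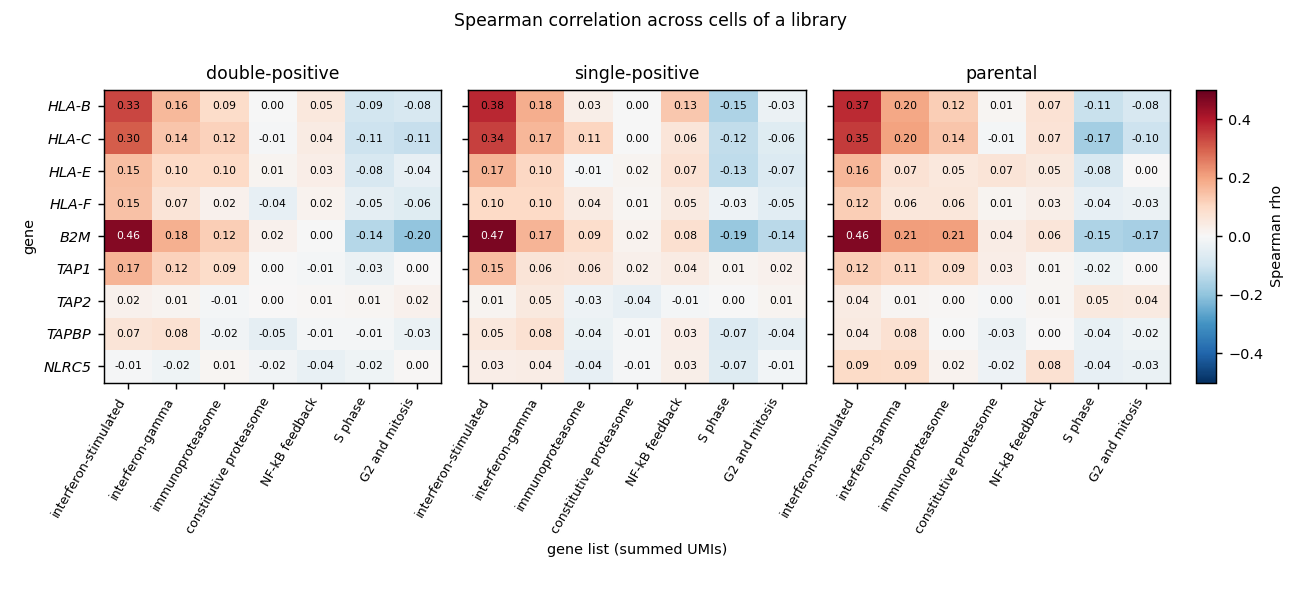
Spearman correlation across thinned cells between each of the 9 genes (y axis) and the summed UMIs of 7 gene lists (x axis), in the double-positive (1940 cells), single-positive (1291 cells) and parental library (2409 cells). The column of interferon-stimulated genes is the highest for B2M (0.46, 0.47 and 0.46), HLA-B and HLA-C, and the columns of S phase and of G2 and mitosis genes are below 0 for B2M.

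The 10 genes outside the HLA family whose level across cells was most like the summed class I RNA, over 7678 genes and by the mean Spearman correlation of the 3 libraries, were led by IFI6 at 0.44. IFITM3 and IFITM1 followed at 0.38 each and IFI27 at 0.37. BST2, which tethers virions to the cell, stood at 0.27 and ISG15, a ubiquitin-like modifier, at 0.25, so that 6 of the 10 were on the interferon-stimulated list. The remaining 4 were FXYD3 (0.30), C15orf48 (0.28), LY6E (0.28) and LCN2 (0.27), of which LCN2 encodes the iron-siderophore binding protein lipocalin 2. The median over all these genes was -0.01 and the 99th percentile 0.13. The class I sum is mostly B2M, so the ranking is largely one of likeness to B2M. The 10 genes averaged from 357 CPM (C15orf48) to 5897 CPM (IFI27), against a floor of 10 CPM for all genes. As the measure depends on UMIs per cell, all genes are not a like background for them.

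Cells were then divided into quintiles on the interferon-stimulated sum, with cuts at 79, 97, 115 and 141 UMIs set on the cells of all libraries together. The groups did not fill them alike: 22.3% of double-positive, 9.53% of single-positive and 23.2% of parental cells were in the highest quintile, and 16.6%, 31.1% and 16.9% in the lowest. From the lowest to the highest quintile HLA-B had 256, 362, 423, 484 and 697 CPM in double-positive cells. In single-positive cells it had 220, 339, 381, 423 and 737 CPM, and in parental cells 187, 248, 319, 384 and 585 CPM. HLA-B was higher at every step in every library. The highest quintile exceeded the lowest by 1.45 (1.38 to 1.51), 1.75 (1.68 to 1.81) and 1.65 (1.58 to 1.72) on the log2 scale in double-positive, single-positive and parental cells.

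TAP1 had 61.5 CPM in the highest and 23.2 CPM in the lowest quintile of double-positive cells, a log2 ratio of 1.41 (1.2 to 1.62). In single-positive cells TAP1 had 89.0 and 26.1 CPM, a ratio of 1.77 (1.58 to 1.96), and in parental cells 58.1 and 24.2 CPM, a ratio of 1.26 (1.06 to 1.47). Its weak correlation across single cells thus went with a large difference between pooled quintiles, in which its few UMIs per cell add up. HLA-F behaved likewise, at 1.77 (1.49 to 2.07), 1.47 (1.2 to 1.74) and 1.07 (0.81 to 1.34) for the 3 libraries. B2M differed by 0.75, 0.91 and 0.70, HLA-C by 0.88, 1.06 and 0.85 and HLA-E by 0.77, 0.73 and 0.66. TAPBP differed little, by 0.29, 0.26 and 0.16. For TAP2 the values 0.13, 0.33 and 0.26 had intervals that included 0 in every library, and NLRC5 gave 0.32 (-0.24 to 0.88), 0.86 (0.14 to 1.54) and 1.56 (0.96 to 2.21).

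By this split 8, 8 and 7 of the 9 genes were at least 1.2-fold higher in the highest than in the lowest quintile of double-positive, single-positive and parental cells, and 0 were lower. The counts include NLRC5, which is under the floor of 10 CPM kept for the genes set beside them. Its interval included 0 in double-positive cells, as did that of TAP2, which was counted in single-positive cells. Of 7645 genes, 10.3%, 11.1% and 10.3% were higher and 18%, 27% and 16.8% lower, with a median over all genes of -0.06, -0.10 and -0.05. The median cell of the highest quintile was shallower than that of the lowest in each library, at 26777 against 33498 UMIs in double-positive, 37671 against 42096 in single-positive and 20868 against 25186 in parental cells. After thinning, too, the interferon-stimulated sum was lower in cells of more raw UMIs, with a Spearman correlation of -0.19, -0.09 and -0.12 in double-positive, single-positive and parental cells. B2M gave -0.18, -0.19 and -0.05 and HLA-B -0.13, -0.13 and -0.09 with raw UMIs, and the part of depth in the levels and the correlations was not tested.

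**Figure D5:**
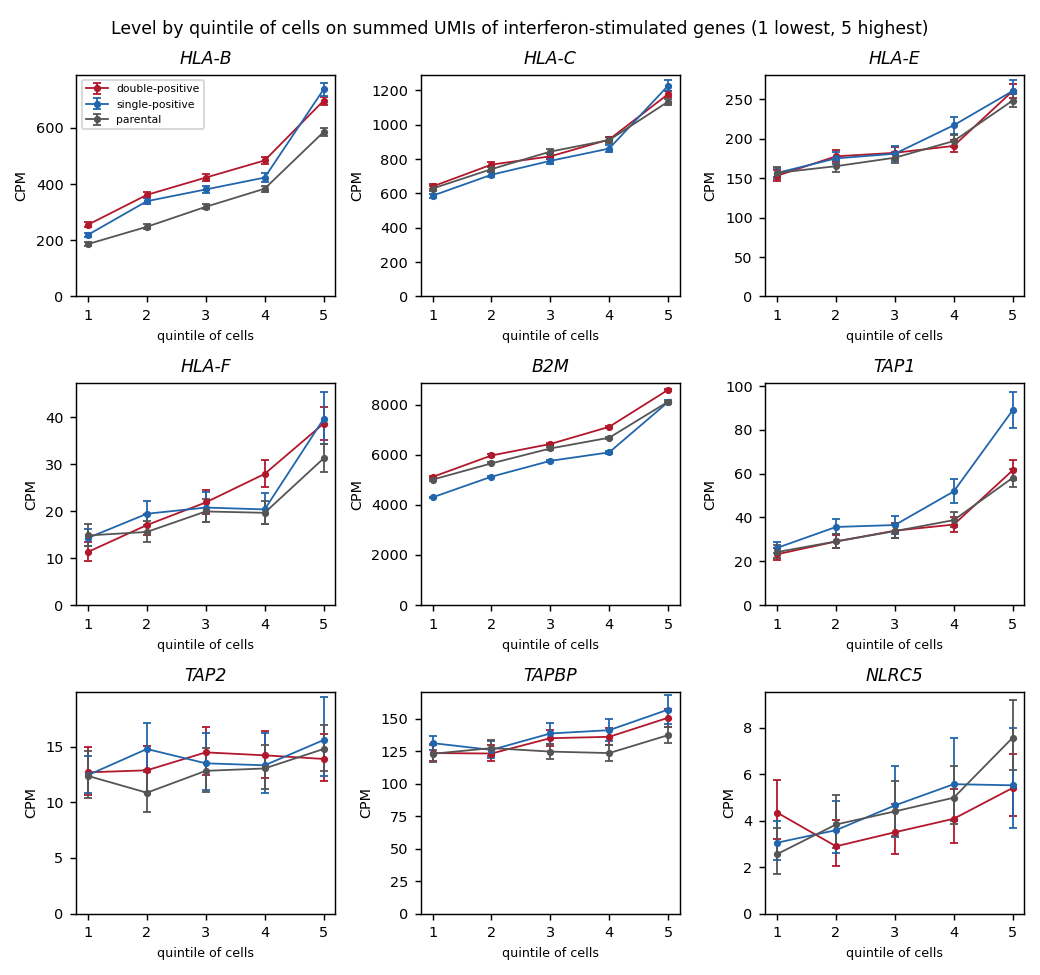
Level in CPM (y axis, starting at 0) of each of the 9 genes by quintile of cells on the interferon-stimulated sum (x axis, 1 lowest, 5 highest), in the 3 libraries, with 95% counting intervals. HLA-B is higher at each step in every library and highest in double-positive cells in quintiles 1 to 4. TAP1 in the highest quintile reaches 89.0 CPM in single-positive, against 58.1 CPM in parental and 61.5 CPM in double-positive cells.

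Within a quintile, where cells had a like interferon-stimulated level, the differences between libraries changed in part. For double-positive against single-positive cells HLA-B gave log2 ratios of 0.22, 0.09, 0.15 and 0.19 in the first 4 quintiles and -0.08 in the highest, and B2M gave 0.25, 0.22, 0.16, 0.22 and 0.08. With the quintiles weighted alike HLA-B came to 0.08 and B2M to 0.18, and 0 members were then 1.2-fold higher, against 2.15% of all genes. TAP1 was lower in double-positive than in single-positive cells in all 5, at -0.17, -0.30, -0.11, -0.50 and -0.53, although the intervals of quintiles 1 and 3 included 0, and its equally weighted ratio was -0.37. For single-positive against parental cells HLA-B lay above 0 in all 5 quintiles, between 0.14 and 0.45, and TAP1 likewise, between 0.11 and 0.61. B2M lay below 0 there in all 5, between -0.22 and 0.00, with an interval that included 0 in the highest. For double-positive against parental cells HLA-B gave 0.45, 0.54, 0.41, 0.34 and 0.25, above 0 in every quintile, while B2M stayed between 0.03 and 0.09 and TAP1 between -0.08 and 0.08.

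One single-positive cell stood apart on this scale. Its interferon-stimulated sum after thinning was 997 UMIs and the next highest of that library was 349. Of its 67525 UMIs, 126 were HLA-B, 1168 were B2M, 32 were TAP1 and 689 were CXCL10, a chemokine that draws T cells. It held 226 of the 268 UMIs of IFNL1, an interferon lambda, in the single-positive library. Without it TAP1 in the highest single-positive quintile was 83.8 CPM and HLA-B 722 CPM. The calls between libraries did not change when the cell of the highest sum was left out of each library, an alternative chosen after seeing the data.

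The other genes of the pathway moved little between libraries. All 5 genes of the immunoproteasome and its activator, which trim peptides to a form suited to class I, were measured, and 0 passed 1.2-fold in any comparison. Between 2.54% and 7.75% of all genes passed it per comparison and direction, so 0 of 5 is near that share. PSME1, a subunit of the activator, had 395, 373 and 429 CPM in double-positive, single-positive and parental cells, and PSMB9, a catalytic subunit that is the neighbour of TAP1, had 54.7, 53.2 and 60.9 CPM. All 5 lay slightly above 0 for double-positive against single-positive cells, with a median of 0.05, where 56.5% of all genes lay below 0. They lay slightly below 0 for single-positive and double-positive against parental cells, with medians of -0.15 and -0.10, as did 37.2% and 41.6% of all genes. The 8 genes of peptide trimming and loading in the endoplasmic reticulum were all measured. All 8 lay above 0 for single-positive against parental cells, with a median of 0.22, where 37.2% of all genes lay below 0. With double-positive set against single-positive cells, 7 of the 8 were below 0, with a median of -0.09, where 56.5% of all genes were. Only UGGT1, which checks the folding of glycoproteins, passed 1.2-fold, at 12.5 CPM in single-positive and 9.30 CPM in parental cells. In that comparison 7.75% of all genes were higher by that measure. CALR, the chaperone calreticulin, had 724, 809 and 711 CPM in double-positive, single-positive and parental cells.

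Of 11 measured transcription factors known to act at class I promoters, 0 passed 1.2-fold between double-positive cells and either other library. Among all genes 2.54% were higher and 4.92% lower than in single-positive cells, and 3.29% and 2.86% than in parental cells, so 0 of 11 is near these shares. NFYA, a subunit of the factor that binds CCAAT, was the one factor past it for single-positive against parental cells, at 9.35 and 7.4 CPM. There 7.75% of all genes were higher, and 1 of 11 is near that share. At the floor of 10 CPM used for all genes, 9 factors were measured and 0 passed. RFX5, a partner of NLRC5 at these promoters, had 8.01, 7.23 and 7.23 CPM in double-positive, single-positive and parental cells. Among the 5 measured class I related molecules, RAET1G, a ligand of the receptor NKG2D, had 31.4, 27.4 and 34.2 CPM. It was the one past 1.2-fold, lower in single-positive than in parental cells, against 2.58% of all genes.

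The interferon-stimulated genes themselves differed between libraries. Of 44 measured at 5 CPM or more, 4 were at least 1.2-fold higher and 1 lower in double-positive than in single-positive cells, against 2.54% and 4.92% of all genes, and their median log2 ratio was 0.08. In single-positive against parental cells 0 were higher and 10 lower, against 7.75% and 2.58% of all genes, with a median of -0.16. In double-positive against parental cells 0 were higher and 5 lower, against 3.29% and 2.86%, with a median of -0.08. At the floor of 10 CPM used for all genes, 42 were measured and 9 and 4 were lower in these 2 comparisons with parental cells. ISG20, an exonuclease, had 110, 83.1 and 137 CPM, and ISG15 had 1385, 1076 and 1455 CPM in double-positive, single-positive and parental cells. IFI6 had 2859, 2170 and 2533 CPM in the same order. In double-positive against parental cells 35 of the 44 lay below 0, against 41.6% of all genes, while IFI6 lay at 0.17. Of 19 S phase genes, 13 were at least 1.2-fold higher in single-positive than in parental cells, against 7.75% of all genes, and 5 were lower in double-positive than in single-positive cells, against 4.92%. Their part in the class I levels was not tested.

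The interferons that can induce the pathway were sparse. IFNL1 had 123, 268 and 257 UMIs in 28 double-positive, 9 single-positive and 34 parental cells. IFNB1, interferon beta, had 26, 42 and 23 UMIs in 4, 1 and 4 cells in the same order. IFNG, interferon gamma, was at 0 in all 3 libraries, where a floor of 3 counts in each library, not the Poisson interval given for the other levels, is 0.0491, 0.0595 and 0.0470 CPM in double-positive, single-positive and parental cells. CXCL10, a chemokine and not such a ligand, had 30.4 CPM in double-positive, 33.7 CPM in single-positive and 52.5 CPM in parental cells. The 1 cell described above supplied 689 of its 1701 single-positive UMIs. Near-empty barcodes were richer in it, at 121, 43.3 and 306 CPM in the same order, so a single UMI of CXCL10 in a droplet can be free RNA and no share of cells with one is given. Class II transcripts were scarce, as the transactivator CIITA had 6, 4 and 4 UMIs and HLA-DRA 10, 0 and 4 UMIs in the 3 libraries. CD74, the class II invariant chain, had 244, 14 and 127 UMIs, of which 89 double-positive UMIs lay in 1 cell.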

How the data were processed

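RNA of BxPC-3 cells was captured with the 10x Chromium 5′ kit, per the labels' protocols, in 3 libraries, 1 per group. The deposited matrices hold raw counts of unique molecular identifiers for 33694 features and 737280 barcodes per library, not filtered for cells by the authors. Cell Ranger 4.0.0, Seurat 4.0.6 and the build GRCh38 are named in the submitters' processing notes, and no source used here names the annotation release. Positions came from GENCODE 29, which matched 33132 features by identifier.

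Barcodes of at least 6500 UMIs were cells. None had over 20% mitochondrial UMIs. No doublets were removed, because a sort for both colours could itself mark wanted droplets as doublets. UMIs were summed over cells and scaled to CPM. Log2 ratios carry exact conditional binomial (Clopper-Pearson) intervals at 95%, levels carry exact Poisson intervals and shares carry exact binomial ones, for counting error only. With 1 library per group no p-value was computed, and past 1.2-fold is a description of size. Genes averaging 10 CPM or more gave the background, and genes of the lists needed at least 5 CPM. Spread and correlations used cells thinned to 6500 UMIs without replacement. Shared sequence was searched in 75-base windows of the transcripts. The 9 members, the lists and the rules were chosen with earlier results of these data known. All members are named, of each other list up to 4 genes with the largest ratio in a comparison, and the 10 genes most correlated with the summed members. CIITA, HLA-DRA, CD74, IFNG, IFNL1 and IFNB1 are named outside that rule, after their values were seen.

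On simulated counts for double-positive against single-positive cells (7687 genes), all 50 genes changed 1.5-fold were called, and 0% of 7487 unchanged genes were. These counts held counting noise alone, without spread between cultures, and the smallest rise simulated was above the ratios of HLA-B and B2M. They therefore cannot give the rate of false calls between cultures. Alternatives changed scaling, weighting, depth, the cell floor, mitochondrial share, ambient RNA and the interferon-stimulated mix of cells. Python 3.11.15 with numpy 2.4.6, scipy 1.17.1 and pandas 2.3.3 was used.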

Additional observations from a re-analysis of the deposited data

How the results depend on the processing

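No paired analysis was possible because each group has 1 library. The larger changes in the count of members at least 1.2-fold apart came under the settings below. HLA-F, not past 1.2-fold in the main count, was near it for double-positive against single-positive cells. Its log2 ratio there ranged from 0.03 to 0.28 over the alternatives, past 1.2-fold at its highest. With median-of-ratios scaling 2 members were lower in single-positive than in parental cells and 1 lower in double-positive than in parental cells, against 0 and 0. The shares of all genes lower were then 4.68% and 3.54%, against 2.58% and 2.86%. The mean of per-cell CPM, the removal of cells under 0.5% mitochondrial UMIs and the subtraction of 5% of UMIs as ambient each made 1 lower in double-positive than in parental cells, and the removal also made 1 lower in single-positive than in parental cells. In that order 2.73%, 2.84% and 2.93% of all genes were lower in double-positive than in parental cells. After the removal 2.52% of all genes were lower in single-positive than in parental cells. Wherever a member was lower in double-positive than in parental cells, it was NLRC5, at -0.43 on the log2 scale at the lowest. For single-positive against parental cells only B2M and NLRC5 were ever lower by 1.2-fold. NLRC5 averaged 4.29 CPM, under the floor of 10 CPM for all genes. The shares of all genes are therefore not a like background for NLRC5. Thinning to 6500 UMIs made 2 higher in double-positive than in parental cells, against 1, and the share of all genes rose too, to 5.48% from 3.29%. In the shared UMI range 0 were higher in double-positive than in single-positive cells, against 2, while 2 were higher and 1 lower in single-positive than in parental cells, and 2 higher and 1 lower in double-positive than in parental cells. In that range 12.7% of all genes were higher and 10.7% lower for double-positive against single-positive cells. The shares were 10.4% and 13.7% for single-positive against parental and 4.40% and 6.19% for double-positive against parental cells. With quintiles weighted alike 0 were higher and 1 lower in double-positive than in single-positive cells, against 2.15% and 4.80% of all genes. By that setting 2 were higher in single-positive than in parental cells, against 5.87% of all genes.

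The median log2 ratio of the members changed sign for single-positive against parental cells, from -0.04, to 0.0054 with the mean of per-cell CPM, 0.0079 in the shared UMI range and 0.12 with quintiles weighted alike, and for double-positive against single-positive cells, from 0.07, to -0.031 with quintiles weighted alike. Thinning to 3000 UMIs turned the overdispersion of TAP1 in double-positive cells to -0.034 and of TAPBP in single-positive cells to -0.0034. Without the highest quintile the median Spearman correlation of the members with the interferon-stimulated sum was 0.096, 0.079 and 0.058 in double-positive, single-positive and parental cells, against 0.15, 0.15 and 0.12. The cause was not tested. HLA-B, HLA-C, HLA-F and B2M, all higher in double-positive than in single-positive cells, kept the sign of that ratio under every alternative run. TAP1, lower in double-positive cells, kept it too, between -0.37 and -0.04, whereas HLA-E, TAP2, TAPBP and NLRC5 did not. In the highest quintile alone the ratios of HLA-B and HLA-C were -0.08 and -0.06, and that of B2M was 0.08. The sign of HLA-F did not hold within quintiles, as it lay above 0 in only 2 of the 5. From the lowest to the highest quintile its ratios were -0.34 (-0.66 to -0.02), -0.19, 0.07, 0.46 and -0.04. Single cells limit NLRC5, TAP2 and HLA-F, which had under 0.2 UMIs per cell at 6500 UMIs. Leaving out the cell with the highest interferon-stimulated sum and the 5 highest genes of that sum were chosen after seeing the data.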
